A study of Mus musculus with 4 samples.

Results

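The Meis, Pbx and Pknox genes were followed in the posterior tissue of mouse embryos that lack Cdx4 and carry 1 functional copy of Cdx2. They were represented by 14 of the 41174 non-control probes of the array. These are all the probes whose name in the scanner files is Meis1, Meis2, Pbx2, Pbx3, Pknox1 or Pknox2, or an older symbol of one of these 6 genes. Meis2 appears in the files as Mrg1. Its probes A_52_P277641 and A_51_P422429 were matched through the RefSeq accession given beside that name. Its probe A_52_P290211 has only a clone accession there and was matched through the name Mrg1, which the files pair with that RefSeq accession.

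These genes encode homeodomain proteins of the TALE class, named for a loop of additional amino acids within the homeodomain. Pbx proteins bind DNA together with Hox proteins and sharpen their choice of sites. Meis and Pknox (Prep) proteins bind Pbx, help it to enter the nucleus and join it and Hox proteins on DNA, so that a Hox protein acts in the company of both families. Cdx proteins are homeodomain factors that activate Hox genes in the posterior of the embryo, and in the trunk Meis1 and Meis2 are also known as genes that retinoic acid induces.

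Each array carried RNA of Cdx2+/-Cdx4-/- embryos in one colour and of wildtype embryos in the other. Per the labels and the design text, the posterior part was dissected at 5 to 6 somites at one axial level, with the last somite boundary as the guide, and each genotype's tissue was a pool of 10 embryos. The 4 arrays are labelled as 2 replicates with a dye swap each and are called here array 1 (replicate 1), array 2 (its dye swap), array 3 (replicate 2) and array 4 (its dye swap). Whether each replicate had a pool of its own is not stated, so the p-values below rest on the spread between hybridisations alone, which may be technical. The RNA came from all cells of the dissected piece, so more cells of a type and more RNA per cell cannot be told apart.

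The direction of the ratios is not settled by the labels. The log2 ratio of Cy5 over Cy3 for Cdx4 was -2.59, -2.11, 2.82 and 2.42 on arrays 1 to 4. By the labelled dyes, Cdx4 was lower in the mutant on arrays 1 and 4 and higher on arrays 2 and 3. Over all 41108 probes with 4 values, arrays 1 and 3 correlated at r = -0.36 and arrays 2 and 4 at r = -0.38, although each pair has the same labelled dyes. Arrays 1 and 2 correlated at r = 0.75 and arrays 3 and 4 at r = 0.79, although each pair is labelled as a dye swap. All arrays were therefore turned so that the Cdx4 ratio is negative, and the result is called the aligned ratio. The channel with the lower Cdx4 signal is called the mutant side and the other the wildtype side. Aligned ratios carry the labelled sign of arrays 1 and 4, and by the labels of arrays 2 and 3 every sign below turns. The Cdx4 ratio was used for this choice and is no result. Markers of the posterior growth zone were present as the tissue label says, since all 8 examined (T, Wnt3a, Fgf8, Tbx6, Msgn1, Hes7, Cdx2 and Nkx1-2) had a probe well above background in all 8 channels.

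Of the 14 probes, 11 were well above background in all 8 channels and were tested. The other 3, which are 2 probes of Pbx3 and 1 of Pknox2, were not well above background in any channel, and no ratio is given for them. On the tested probes Meis2 was higher on the mutant side at its brightest probe, and no other probe of the 6 genes passed the test. This was 1 of 11 probes (9.09%), beside 5.69% of all 21874 probes tested, so that the share called was near the background (2.33% of probes were higher and 3.36% lower). The test was limma's moderated test on the means of the labelled replicates (n = 2), with Benjamini-Hochberg adjustment over all probes tested and a threshold of 0.05. The median aligned log2 ratio of the 11 probes was -0.024, beside 0.0094 over all probes tested.

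**Figure D1:**
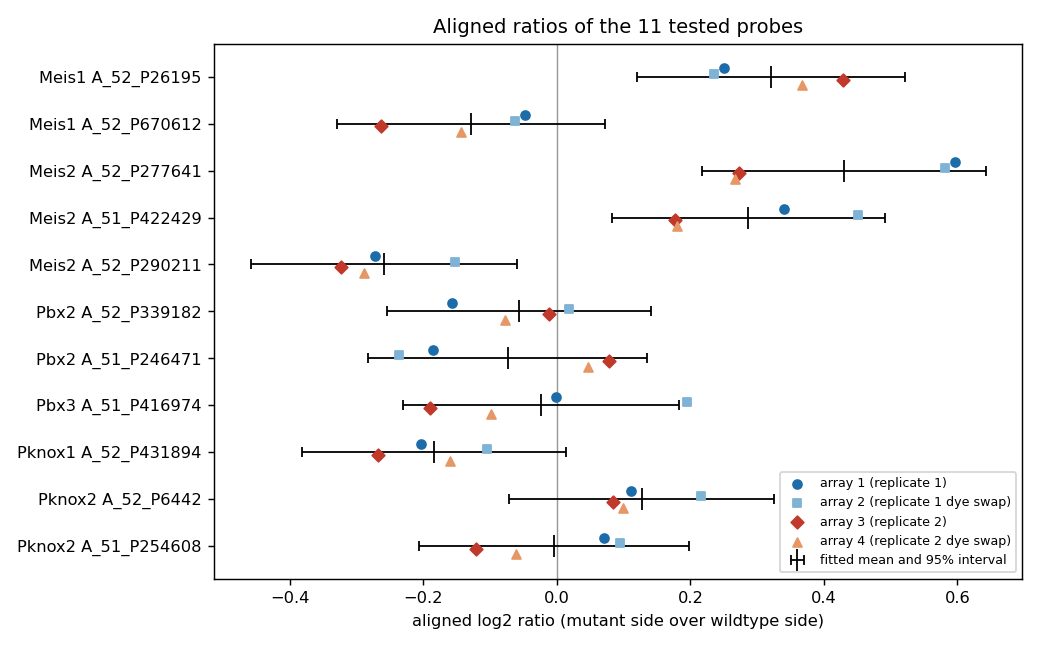
Aligned log2 ratio (x axis) of the 11 tested probes on the 4 arrays, with the fitted mean and its 95% interval from limma. The 3' probes of Meis1 and Meis2 lie above 0 on all 4 arrays, their 5' probes and that of Pknox1 lie below 0 on all 4, and the Pbx probes scatter around 0.

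Meis2 encodes one of the 2 Meis proteins represented here. Its brightest probe (A_52_P277641) lies on chromosome 2 at 115554771 to 115554830 (mm8, minus strand), in the Meis2 transcript by its RefSeq accession. Its normalised log2 signal on the mutant side was 11.99, 12.21, 11.80 and 11.58 on arrays 1 to 4. On the wildtype side it was 11.39, 11.63, 11.52 and 11.31 on the same arrays. The mutant side was the brighter one on all 4 arrays, although the 2 ranges overlap because whole arrays differ in brightness. The aligned log2 ratios were 0.60, 0.58, 0.27 and 0.27, so that the labelled replicates differed, with means of 0.59 and 0.27. The fitted difference was 1.35-fold (log2 0.43 ± 0.10, moderated SE, n = 2, 95% interval 0.22 to 0.64, limma adjusted p = 0.0156).

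That call is close to its threshold. By limma's adjusted p, it ended without array 1 (0.133), without array 2 (0.0634), without array 3 (0.0559) and with arrays 1 and 4 alone (0.0908). By the same p it ended with the scanner's processed signals (0.323) and the authors' series table (0.0766). That table holds ratios of the same processed signals, and both were turned by Cdx4 here, not left as labelled. It also ended with no filter on dim probes (limma adjusted p = 0.193) and median centring (0.814). Without the filter only 16 of all 41174 probes passed, and with median centring 0 of 21874, so these losses are not particular to Meis2. The share of all probes called was 5.69% in the averages reported. It fell to 0.864% without array 1, 3.73% without array 2, 3.3% without array 3 and 2.33% with arrays 1 and 4 alone. It rose to 6.88% with the processed signals and 8.92% in the authors' series table. With arrays 2 and 3 alone, taken as labelled, the probe passed in the opposite direction, at -0.43 (limma adjusted p = 0.0448). With signs as labelled on all arrays its log2 ratio was 0.0024, and over all alternatives its adjusted p ranged from 4.69e-15 to 1.00.

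A further Meis2 probe (A_51_P422429, chromosome 2 at 115554835 to 115554894) lies 64 bases away on the same transcript. It had aligned log2 ratios of 0.34, 0.45, 0.18 and 0.18, positive on every array and again larger on arrays 1 and 2. Its fitted log2 ratio was 0.29 ± 0.098 (95% interval 0.082 to 0.49) and did not pass the test (limma adjusted p = 0.104).

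The third Meis2 probe ran the opposite way. It (A_52_P290211, chromosome 2 at 115687533 to 115687592) was designed on a cDNA clone from neonatal thymus and lies 132762 bases from the brightest probe, towards the 5' end of the gene. Its signal on the mutant side was 10.19, 10.58, 10.03 and 10.03 and on the wildtype side 10.46, 10.73, 10.36 and 10.32, in the log2 units used above. The mutant side was thus the dimmer one on all 4 arrays, with aligned log2 ratios of -0.27, -0.15, -0.32 and -0.29. The fitted value of -0.26 ± 0.095 (95% interval -0.46 to -0.060) did not pass (limma adjusted p = 0.137). With median centring in place of loess it was 0.091, against a median of 0.23 over all probes tested under that setting.

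**Figure D2:**
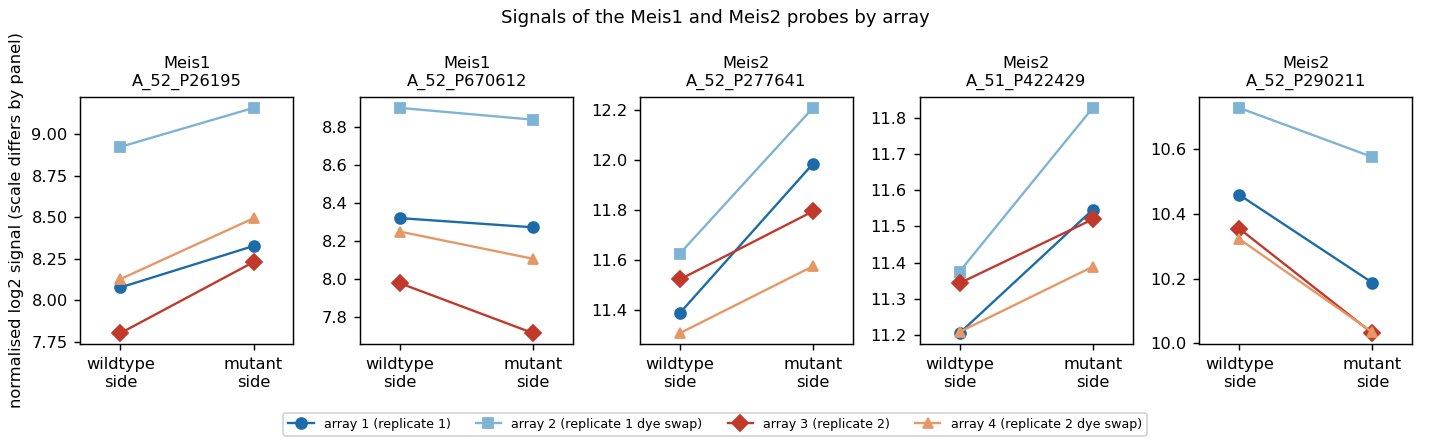
Normalised log2 signal (y axis, with its own scale in each panel) on the wildtype and mutant sides for the 5 probes of Meis1 and Meis2, with 1 line for each array. The lines rise in the 3 panels of 3' probes and fall in the 2 panels of 5' probes, on every array.

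Meis1, the gene after which the family is named, was first known as a site of viral integration in myeloid leukaemia. It showed the same split between its 2 probes, neither of which passed the test. Both were dim, with mean log2 signals of 8.39 (3') and 8.30 (5'), beside 11.68 for the brightest Meis2 probe. The Pbx3 probe A_52_P406028, not well above background in any channel, had a mean of 7.35. The 3' probe (A_52_P26195, chromosome 11 at 18781206 to 18781265, mm8, minus strand) had a log2 signal of 8.33, 9.16, 8.23 and 8.49 on the mutant side and of 8.08, 8.92, 7.80 and 8.13 on the wildtype side. Its aligned log2 ratios of 0.25, 0.24, 0.43 and 0.37 were positive on all 4 arrays and larger on arrays 3 and 4. The fitted log2 ratio was 0.32 ± 0.096 (95% interval 0.12 to 0.52, limma adjusted p = 0.0588). In the authors' series table, with the arrays turned by Cdx4, the same probe had a log2 ratio of 0.62 (limma adjusted p = 0.0211). In the scanner's processed signals, turned likewise, it had 0.61 (limma adjusted p = 0.0428). Its limma adjusted p ranged from 1.04e-08 to 1.00 over all alternatives.

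The 5' probe of Meis1 (A_52_P670612, chromosome 11 at 18911247 to 18911306) lies 130041 bases away. Its log2 signal on the mutant side was 8.27, 8.84, 7.71 and 8.11, and on the wildtype side 8.32, 8.90, 7.98 and 8.25. All 4 aligned log2 ratios were below 0, at -0.048, -0.062, -0.26 and -0.14. The fitted log2 ratio was -0.13 ± 0.096 (95% interval -0.33 to 0.072, limma adjusted p = 0.564).

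On the aligned ratios the split between probes was larger than the spread between arrays in both Meis genes. The aligned log2 ratio of the 5' probe of Meis1 minus that of its 3' probe was -0.30, -0.30, -0.69 and -0.51 on arrays 1 to 4, with a mean of -0.45 (SD 0.19, n = 4 arrays). With the authors' series table the mean difference was -0.90. For Meis2 the 5' probe minus the brightest 3' probe was -0.87, -0.73, -0.60 and -0.56, with a mean of -0.69 (SD 0.14). The 3' probes of Meis2 differed from each other by -0.14 (SD 0.078). These differences were given no test. The sign of each difference rests on the turning of the arrays, and its size on a single array does not. The means rest on the turning too. With signs as labelled, opposed arrays cancelled, and the mean difference was 0.045 for Meis1 and -0.024 for the 5' probe of Meis2.

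Probes of a gene with mean ratios of opposite sign were frequent on these arrays. Of 5111 genes with at least 2 tested probes, 1641 (32.1%) had a probe whose mean ran opposite to that of the brightest probe. In 123 genes (2.41%) the opposite signs were held by both probes on all 4 arrays, and Meis1 and Meis2 were among these, although neither 5' probe passed the test. The largest difference between the brightest and another probe of a gene had a median of 0.085 (log2) and a 95th percentile of 0.34. A difference at least as large as that of Meis1 was found in 1.94% of these genes, and one at least as large as that of Meis2 in 0.352%. These shares describe the arrays and are no test, since both genes were looked at after their probes had been seen to differ. No annotation on mm8 was used here, so whether each probe lies in an exon of a given isoform or in an untranslated region was not determined.

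**Figure D3:**
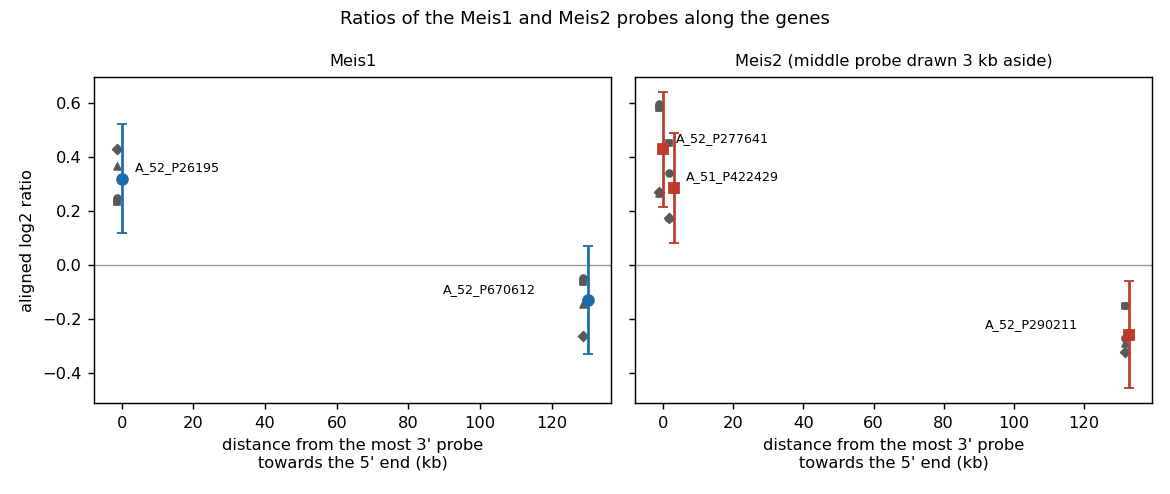
Aligned log2 ratio (y axis) against the distance in kb from the most 3' probe of the gene (x axis) for Meis1 and Meis2. Grey symbols are the 4 arrays, and coloured symbols with bars are the fitted means with 95% intervals. The probes at 0 lie above the zero line and those at about 130 kb have means below it.

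The upstream sequences of Meis1 and Meis2 are shown because these genes had the largest ratios of the 6. Of the 6 genes, 3 (Meis1, Meis2 and Pbx2) had an entry in the RefSeq promoter table (GRCm38.p6). The 250 bases before the annotated start are given 5' to 3' on the strand of the gene, which is the minus strand for both. Capitals mark TTTAT or its reverse complement, the short core of the Cdx binding motif. The Meis1 window is chr11:19018970-19019219 and the Meis2 window chr2:116064620-116064869.
Meis1: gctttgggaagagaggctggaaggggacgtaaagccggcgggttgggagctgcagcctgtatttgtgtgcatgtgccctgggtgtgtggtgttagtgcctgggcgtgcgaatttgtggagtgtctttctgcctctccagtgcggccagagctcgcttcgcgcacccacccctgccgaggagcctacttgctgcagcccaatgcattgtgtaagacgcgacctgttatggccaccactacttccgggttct
Meis2: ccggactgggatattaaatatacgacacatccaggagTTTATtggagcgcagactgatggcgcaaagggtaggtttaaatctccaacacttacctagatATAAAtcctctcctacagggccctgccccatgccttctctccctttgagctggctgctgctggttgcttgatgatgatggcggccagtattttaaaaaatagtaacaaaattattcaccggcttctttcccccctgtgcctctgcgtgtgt

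The Meis2 window held 2 matches to TTTAT on either strand, and the Meis1 window none. Over 32851 promoter windows of the same length, 37.3% held at least 1 match. This short core was searched after the longer Cdx core TTTATG (10.8% of windows) had given no match in Meis1, Meis2 or Pbx2. The Meis and Pknox core TGACAG (15.9%) and the composite Pbx and Hox motif TGATTNAT (2.82%) had none there either, all on both strands. The TTTATG and TTTAT searches overlap. GC content was 59.6% in the Meis1 window, 47.6% in the Meis2 window and 77.6% in that of Pbx2, beside a median of 52.4%. The arrays measured transcripts and not binding, and a match is a description of letters only.

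The Pbx genes encode the direct partners of Hox proteins and showed no difference that passed the test. Pbx2, a broadly expressed member, had 2 tested probes on chromosome 17 (mm8, plus strand). The brighter (A_51_P246471, 34204466 to 34204525) had aligned log2 ratios of -0.19, -0.24, 0.079 and 0.047. Arrays 1 and 2 were below 0 and arrays 3 and 4 above it, and the fitted value was -0.074 ± 0.099 (95% interval -0.28 to 0.13, limma adjusted p = 0.808). The dimmer (A_52_P339182, 34202857 to 34202916) had -0.16, 0.018, -0.012 and -0.077 (fitted -0.057 ± 0.094, 95% interval -0.25 to 0.14). Its sign varied among the arrays.

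Pbx3 was measured by 1 of its 3 probes (A_51_P416974, chromosome 2 at 33993972 to 33994031, mm8, minus strand). Its aligned log2 ratio was -0.0019 on array 1, 0.19 on array 2, -0.19 on array 3 and -0.099 on array 4. The fitted value was -0.024 ± 0.098 (95% interval -0.23 to 0.18, limma adjusted p = 0.955). The intervals of the 3 Pbx probes leave room for log2 differences from -0.28 to 0.14 in Pbx2 and from -0.23 to 0.18 in Pbx3.

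The Pknox genes encode the relatives of Meis proteins that also bind Pbx. Pknox1 had 1 probe (A_52_P431894, chromosome 17 at 31336031 to 31336090, mm8, plus strand), with aligned log2 ratios of -0.20, -0.10, -0.27 and -0.16. All 4 were negative, and the fitted value of -0.18 ± 0.094 (95% interval -0.38 to 0.014) did not pass (limma adjusted p = 0.333). The brighter of the tested Pknox2 probes (A_52_P6442, chromosome 9 at 36640838 to 36640897) had 0.11, 0.22, 0.084 and 0.099, all positive, with a fitted value of 0.13 ± 0.094 (95% interval -0.071 to 0.33, limma adjusted p = 0.566). The other (A_51_P254608, 36672904 to 36672963) had 0.071, 0.094, -0.12 and -0.061, positive on arrays 1 and 2 and negative on arrays 3 and 4 (fitted -0.0041 ± 0.096).

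The order of the fitted ratios, each gene by its brightest probe, was Meis2 (0.43), Meis1 (0.32), Pknox2 (0.13), Pbx3 (-0.024), Pbx2 (-0.074) and Pknox1 (-0.18). The 95% intervals of every pair of neighbours in that order overlap. Of the 11 tested probes, 7 had the same sign on all 4 arrays (63.6%), 4 positive and 3 negative, beside 41.8% of all probes tested. The mixed signs were those of both Pbx2 probes, the Pbx3 probe and 1 Pknox2 probe.

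How many of these probes passed rested on how the arrays were paired. In the averages used so far, arrays 1 and 2 form a replicate with the mutant side in Cy5 on both, and arrays 3 and 4 one with it in Cy3, so that a dye effect stays in the spread. These averages keep the labelled replicate numbers, but the turned signs go against the labelled dyes of arrays 2 and 3. Averaging array 1 with array 3 and array 2 with array 4 balances the dyes in each average. It uses the same turned signs and takes the labelled replicate numbers as wrong. In that pairing limma called 7 of the 11 probes (63.6%), 4 higher and 3 lower, beside 37.4% of all probes tested (19.4% higher, 18% lower). In that fit limma gave all probes 1 common spread. The 7 were both Meis1 probes, the 3 Meis2 probes, Pknox1 and the brighter Pknox2 probe, with limma adjusted p from 4.69e-15 for the brightest Meis2 probe to 0.0403 for Pknox2. The fitted ratios are the same in both pairings. Averaging array 1 with 4 and 2 with 3 also called 7 (50.3% of all probes, 26.6% higher and 23.7% lower), and 4 separate arrays called 5 (16.6% of all probes, 8.58% higher and 7.98% lower). With signs as labelled, limma called none of the 11, and 33 of all 21129 probes tested (0.156%, or 0.0189% higher and 0.137% lower), with 402 at an unadjusted p under 0.05.

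**Figure D4:**
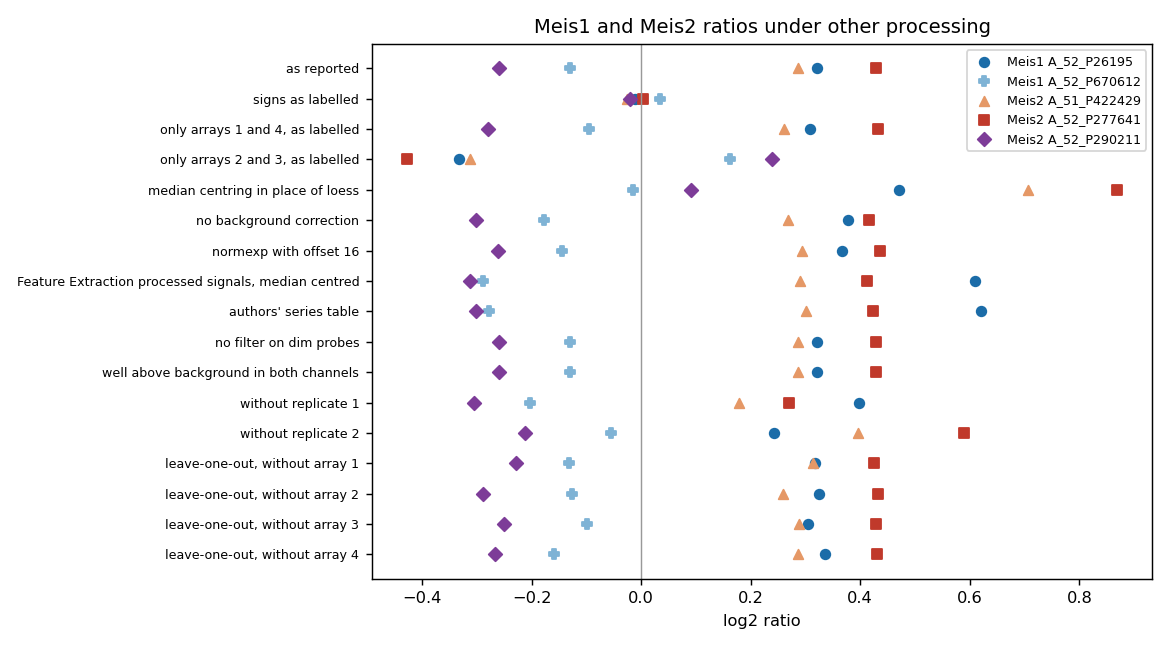
Log2 ratio (x axis) of the Meis1 and Meis2 probes under the processing alternatives (rows). Under most settings the 3' probes lie between 0.18 and 0.87 and the 5' probes below 0. Arrays 2 and 3 alone, taken as labelled, turn every sign, signs as labelled on all arrays bring all 5 near 0, and median centring moves all 5 upwards.

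The genes whose aligned ratios were nearest to those of the brightest Meis2 probe, by Euclidean distance over the 4 arrays among 12372 named genes, were Tceal3 (distance 0.085), Mmp11 (0.093) and Osbpl1a (0.10). The aligned log2 ratios of Tceal3, for example, were 0.53, 0.57, 0.31 and 0.24. With 4 arrays many genes lie close to any pattern.

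Among the other TALE homeobox genes, 1 of 8 measured rose and none fell. This was Irx2, an Iroquois gene, at a log2 ratio of 0.34 ± 0.096 (limma adjusted p = 0.0416), with its other tested probe also at 0.34. It did not pass with median centring (limma adjusted p = 0.814), where 0 of all 21874 probes tested passed. It stood at 0.87 with the processed signals and 0.88 in the authors' series table. All 8 ratios were above 0, with a median of 0.085. Meis3 was at 0.028 and Pbx4 at 0.063, and neither passed. Of the proteins that bind Pbx or Meis or act as their co-regulators, none of the 9 measured passed in limma (median -0.13). In the dye-balanced pairing 5 of the 9 passed, beside 5994 of all 14864 genes tested. Over all 14864 genes tested, each by its brightest probe, 6.79% were called and the median was 0.015 (2.91% were higher and 3.88% lower).

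The Hox genes, whose proteins bind DNA with Pbx and Meis, went both ways. In groups 1 to 4, 2 of 11 genes rose and none fell (median -0.038). Hoxb2 was at 0.41 ± 0.094 on its brightest probe (limma adjusted p = 0.0128) and -0.0011 on its other, and Hoxb1 was at 0.41 ± 0.10. In groups 5 to 8, 1 of 10 rose, Hoxa5 at 0.44 ± 0.10, and 2 fell, Hoxc6 at -0.52 ± 0.10 and Hoxa7 at -0.41 ± 0.095 (median -0.056). In groups 9 to 13, 1 of 10 rose, Hoxd9 at 0.62 ± 0.095. The 3 that fell there were Hoxd13 at -0.65 ± 0.10, Hoxa11 at -0.44 ± 0.099 and Hoxa9 at -0.42 ± 0.094 (median -0.046). With median centring none of these Hox genes passed in limma, and neither did any of all 21874 probes tested. Hoxa7 stood there at 0.062, against a median of 0.23 over all probes tested. In the authors' series table Hoxb1 and Hoxb2 did not pass. With the processed signals Hoxb1, Hoxb2, Hoxa7, Hoxa11 and Hoxa9 did not pass. Hoxd13 stood at -1.56 with the processed signals and -1.55 in the authors' series table, where Hoxa5 stood at 0.67.

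Genes that make, break down or bind retinoic acid were measured at 15 genes, of which 4 rose and 1 fell (median 0.17). Crabp2, a binding protein, was at 0.74 ± 0.10 (limma adjusted p = 0.00021), Aldh1a2, the main synthesising enzyme of the trunk, at 0.47 ± 0.094 and the receptor gene Rarb at 0.40 ± 0.094. Rxrg, a partner receptor, was also called, at 0.40 ± 0.10. Cyp26a1, which degrades retinoic acid, fell by 0.65 on the log2 scale (SE 0.096, limma adjusted p = 0.000396). None of the 5 passed with median centring, where limma called 0 of all 21874 probes tested. Cyp26a1 stood there at -0.21, against a median of 0.23 over all probes tested. Aldh1a2 and Rxrg did not pass with the processed signals (limma adjusted p = 0.193 and 0.279), nor Rxrg in the authors' series table (0.0975). Rarb stood at 0.70 with the processed signals and 0.71 in that table. These ratios and those of the Meis genes come from the same 4 arrays, and no relation between them was tested.

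**Figure D5:**
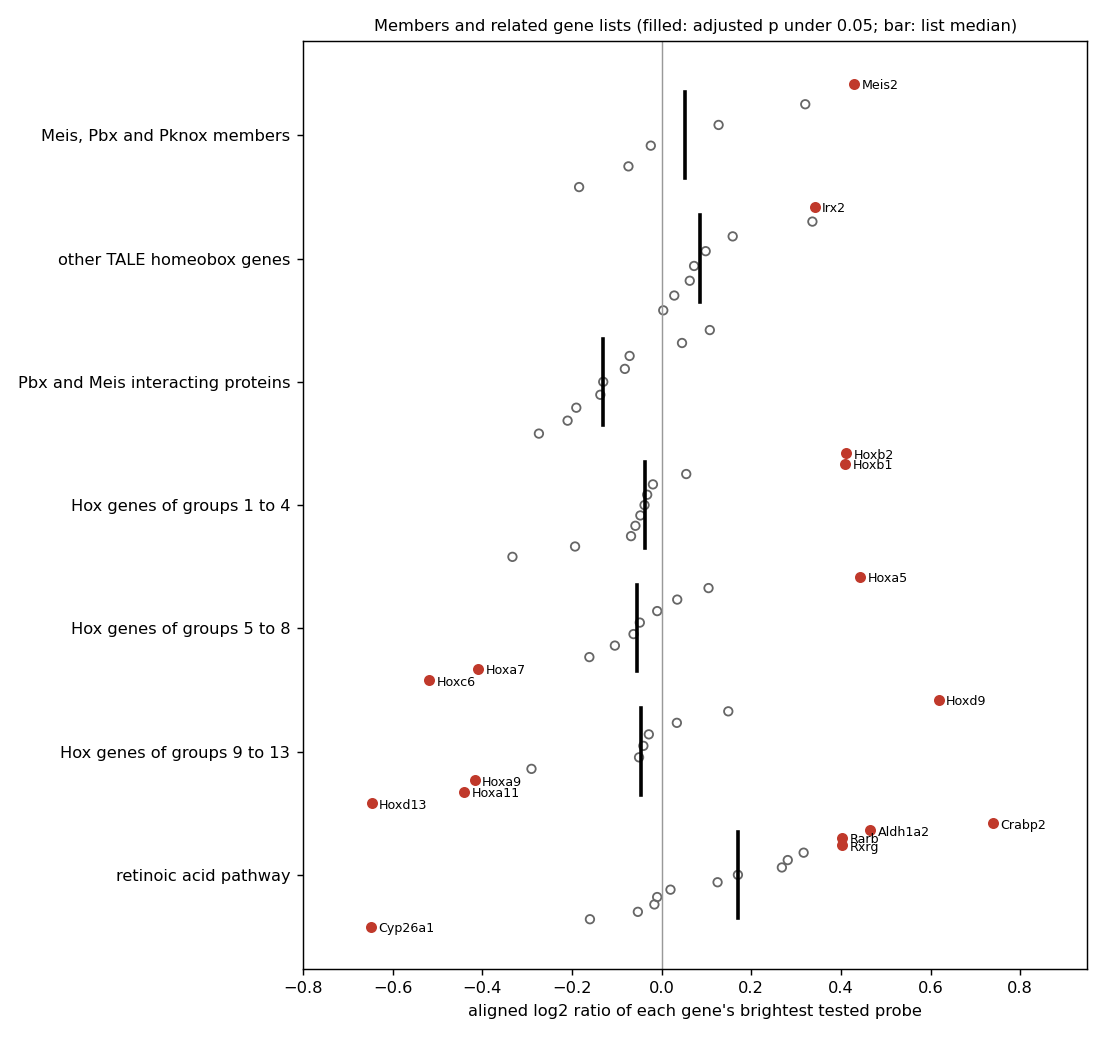
Aligned log2 ratio (x axis) of each gene's brightest tested probe in the 6 genes studied and in 6 related lists (rows). Filled points had a limma adjusted p under 0.05, open points did not, and the vertical bar is the median of the list. Meis2 is the only filled point among the 6 genes, and the Hox and retinoic acid lists hold filled points on both sides of 0, except groups 1 to 4, where the filled points lie above it.

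Markers of several cell types differed between the 2 sides on the same arrays. Those of visceral endoderm, the outer layer of the yolk sac, were lower in 11 of 12 genes (median -0.71), with a summed normalised signal of 64115 to 73594 units on the mutant side and 110490 to 147221 on the wildtype side. Neural plate and neural tube markers were higher in 3 of 6 measured genes and lower in none (median 0.35), with summed signals of 3383 to 5024 and 2102 to 3675 units, and Irx3, Olig2 and Sox3 were not well above background. Somite and presomitic markers were higher in 3 of 9 (median 0.17, 14543 to 18622 against 12494 to 16639 units), with Meox2 and Pax1 not well above background. Markers of primitive erythroid cells were higher in 3 of 5 (median 0.72, 5198 to 7772 against 2521 to 3756 units), with Gata1 and Klf1 not well above background. Endothelial markers were lower in 4 of 11 (median -0.19). Lateral plate and allantois markers gave no call in 10 genes (median -0.047), and 1 of 5 neural crest markers (median 0.073) and 1 of 5 notochord and node markers (median 0.11) were higher. Of 5 trophoblast and decidua markers, 1 was higher and 2 were lower (median 0.043). Of all 14864 genes tested, 2.91% were higher and 3.88% lower. The summed signals are ranges over arrays that differ in brightness, so overlapping ranges do not compare the 2 sides within an array. The part of these marker shifts in the Meis and Pknox ratios was not tested.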

How the data were processed

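Per the file headers, the deposited scanner files give an intensity for each spot in Cy3 and Cy5 (mean signal and local background, and a processed signal) and a log10 ratio of the processed signals, with probe positions on mm8. The submitters' processing notes name Agilent Feature Extraction 9.5.3. The authors' series table holds the same log10 ratio, with the sign turned on both dye swaps (100% of features within 1e-05) and a median of 0 in each column, so it is on a log10 scale, gives the labelled mutant over the labelled wildtype and shows no further centring. For the values given above from the processed signals and from that table, the arrays were turned by Cdx4 like the other aligned ratios. Flags from the deposited files mark outlier spots and signals well above background.

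Intensities were background-corrected by normexp (offset 50) and normalised within arrays by loess, control spots at weight 0, in limma 3.58.1 (R 4.3.3). Outlier spots (103 to 167 per array) were left out and spots of a probe averaged. A probe was tested if well above background on all 4 arrays on at least 1 side. Replicate means were fitted with lmFit and eBayes, which gave 17.1 prior degrees of freedom beside 1 residual. The fit was run on simulated data with known changes, a dye effect and equal noise on every array. Those data held no added variation between replicates, so they check the code and not the spread of these arrays. In the lists a gene stands by its brightest tested probe. The arrays share 1 slide, which leaves no batch to compare, and their number (4) limits the precision.

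The 6 genes, the lists and the tests were chosen with earlier results of these data known, and 3 genes of the lists are not reported here and enter none of the lists' values. Named were all probes of the 6 genes, Cdx4, in each related list the called genes (up to the 3 largest in each direction; Rxrg, Meis3 and Pbx4 and the single markers were named after their values were seen) and the 3 genes nearest to a called gene of the 6. Pairing, sign, normalisation, background, signal source, filter and left-out arrays were varied.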

Additional observations from a re-analysis of the deposited data

How the results depend on the processing

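With signs as labelled on all arrays the log2 ratios of opposed arrays cancelled: the Meis1 probes stood at -0.012 (3') and 0.033 (5'), Meis2 A_51_P422429 at -0.027, Pbx2 A_51_P246471 at 0.0047, Pknox1 at 0.0022, Pknox2 A_51_P254608 at 0.0091 and Pknox2 A_52_P6442 at -0.023. The differences between probes were then 0.045 for Meis1 and -0.029 (A_51_P422429) and -0.024 (A_52_P290211) for Meis2, and limma called 33 probes, 0 of the 11 and 0 genes of the related lists. Arrays 2 and 3 alone, taken as labelled, gave -0.33 and 0.16 for Meis1, -0.31, -0.43 and 0.24 for Meis2 A_51_P422429, A_52_P277641 and A_52_P290211, 0.079 for Pbx2 A_51_P246471, 0.19 for Pknox1, and 0.013 and -0.15 for Pknox2 A_51_P254608 and A_52_P6442, with differences of 0.49 (Meis1), 0.11 and 0.66 (Meis2), 643 probes called and 1 of the 11, which was Meis2 A_52_P277641 as lower. Arrays 1 and 4 alone gave 532 probes, 0 of the 11 and 6 genes of the lists, with Pknox2 A_51_P254608 at 0.0050.

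Limma called 1244 probes in all (509 higher, 735 lower), 1 of the 11 and 15 genes of the lists in the averages reported. Pairing array 1 with 3 and 2 with 4 gave 8189, 7 and 33, pairing 1 with 4 and 2 with 3 gave 11012, 7 and 37, and 4 separate arrays gave 3612, 5 and 25. Of all 14864 genes tested, 1010 (6.79%) were called in the averages reported and 5994 with array 1 paired with 3 and 2 with 4. Median centring gave 0, 0 and 0 (306 probes at an unadjusted p under 0.05), and turned Meis2 A_52_P290211 to 0.091, Pbx2 to 0.39 (A_51_P246471) and 0.073, Pbx3 to 0.27, Pknox1 to 0.092 and Pknox2 A_51_P254608 to 0.057. The median over all probes tested was 0.23 under that setting, so ratios shifted upwards across the arrays and not in these probes alone. No filter gave 16 probes, 0 of the 11 and 0 genes of the lists. The processed signals and the values of the authors were both turned by Cdx4. The former gave 417 higher and 1089 lower probes and 9 genes of the lists. The latter gave 1951 probes, and each gave a Meis1 difference of -0.90. No background correction and an offset of 16 each gave 2 of the 11, beside 7.75% and 6.03% of all 21874 probes tested. Pknox2 A_51_P254608 stood at 0.030 without background correction, 0.081 with processed signals and 0.093 in the authors' series table. Except for fewer probes tested or arrays used, where that is the setting, the cause of these shifts was not tested.

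Leaving out 1 array gave 189 (without array 1) to 979 probes, 0 to 1 of the 11 and 3 to 14 genes of the lists. Differences between probes ran from -0.50 to -0.37 for Meis1 and from -0.73 to -0.63 (A_52_P290211) and -0.16 to -0.10 (A_51_P422429) for Meis2. Pbx3 turned to 0.025 without array 1, and Pknox2 A_51_P254608 to 0.0018 without array 1 and 0.011 without array 3. On replicate 2 alone and replicate 1 alone, which allow no test, Pbx3 stood at -0.14 and 0.096 and Pknox2 A_51_P254608 at -0.091 and 0.083. With 1 array left in a replicate, that array is taken to vary like an average of arrays. Over the alternatives with a test for the 11 log2 ratios, 29 values turned sign, 129 kept sign and side of the threshold, 20 newly passed and 9 no longer passed. Signs under median centring were counted against 0, not against that setting's median of 0.23. The alternatives for differences between probes and for the lists were chosen after seeing the data. Each array is itself a ratio of both genotypes, so the pairing within arrays is part of every test. No further pairing was made, because the replicate numbers link no separate groups.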
